A study of Mus musculus with 24 samples.

Results

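The matrix metalloproteinases are zinc-dependent proteases that cut the proteins between cells, and the Timp proteins are the tissue inhibitors that block them. The genes examined here were 7 metalloproteinases (Mmp2, Mmp3, Mmp9, Mmp10, Mmp12, Mmp13 and Mmp14) and 3 inhibitors (Timp1, Timp2 and Timp3). They were taken by symbol from the platform's probe annotation, without a filter on expression: 10 genes of the 8251 that had a symbol of their own, read by 16 of 12422 probe sets. All 10 were present on the array. The arrays measured RNA of 11 cell lines on 22 arrays, and of control cells on 2 arrays. Each line had been grown from a lung tumour of mice that carried both a c-Myc and a c-Raf transgene and were 8 months old. The lines were A2B1, A2C12, B3, betaD5, betaD10, cRAF_cMYC, gammaA3, gammaA7, gammaB8, gammaD1 and gammaD12, and they were passaged weekly, for up to 50 passages, in medium with 10% fetal calf serum. The line titled gammaB8 is named gammaA8 in its cell line label. The control was made of type II alveolar cells, which secrete the surfactant of the lung, taken from healthy mice without the transgenes, whose age the labels do not give. They were isolated from digested lungs and are not described as cultured, and markers of other cell types were bright on the control arrays. Transformation, culture and the mixture of cells in the control thus cannot be told apart in any difference between lines and control. The sources used here name neither the promoters that drive the transgenes nor whether a line is 1 clone.

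Metalloproteinases are made as inactive proenzymes, and most are secreted, while membrane-type members stay anchored at the cell surface. Collagenases open the collagen triple helix, gelatinases cut the unwound chains, and stromelysins act on a wide range of matrix proteins and on other proenzymes. Timp proteins bind the active site and stop the enzyme, so proteolysis depends on protein levels and activation that RNA does not measure.

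Values are scaled signal intensities, and a difference is between means of log2(signal + 32), a scale on which changes of dim probe sets look smaller than their ratio. Arrays were scaled to a common trimmed mean, so a difference is read against the rest of the RNA in each sample, and in bulk RNA fewer cells of a type and less RNA per cell cannot be told apart. A gene was called where limma's adjusted p, over all 12422 probe sets, was under 0.05 and the difference at least 2-fold. Separate cultures behind the repeat arrays, or separate animals behind the control arrays, are not stated in the labels, so p-values measure only the spread between these samples, which may be technical. Several arrays stood apart. The summed signal of 7 type II cell markers was 1452 on control 1 and 29812 on control 2, and 38.6 to 147 on the tumour arrays, where all 7 lay below the array's median. On control 1, 4 of the 7 type II markers lay below the array's median. The sums of 7 epithelial markers were 12193 on control 1, 6086 on control 2 and 263 to 4660 on the tumour arrays. Those of 13 macrophage markers were 47525, 27452 and 584 to 2070, and those of 7 endothelial markers 837, 2267 and 39.7 to 130. Replicate 1 of cRAF_cMYC resembled replicate 1 of gammaA7 (r = 0.73 over 7670 probe sets, each centred over the tumour arrays) and replicate 2 resembled replicate 2 (r = 0.83), while replicates 1 and 2 of a line did not resemble each other (r = -0.03 in cRAF_cMYC and -0.01 in gammaA7). The unnumbered arrays of the 6 lines that have both kinds also differed from the numbered ones.

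All 3 inhibitors and the membrane-type protease Mmp14 were higher in the lines than in the control, with every line mean above both control arrays. Mmp10 also rose, from control signals near the floor, and Mmp12 fell to the floor. Thus 5 of 10 genes were called higher and 1 lower, where 10.1% and 16.9% of all probe sets were called in those directions (27.1% in both). Of the 8251 genes, each by its brightest probe set, 973 were called higher and 1526 lower. The median log2 difference was 1.18 over the 10 genes and -0.12 over all 8251 genes. Mmp2, Mmp3, Mmp9 and Mmp13 were not called against the control, and Mmp13 was the one called in a test among the lines. Scaling moved the median over all probe sets, which was -0.11 on the deposited scale, 0.05 with quantile normalization and 0.42 with each array centred on its median. The calls over the whole table shifted with it, from 1260 higher and 2103 lower to 1661 and 1558 with quantiles matched and to 2489 and 1089 with medians matched. No log2 difference of the 10 genes changed sign under these scalings, and Mmp13 (2.47 and 2.59) was then called as well.

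**Figure D1:**
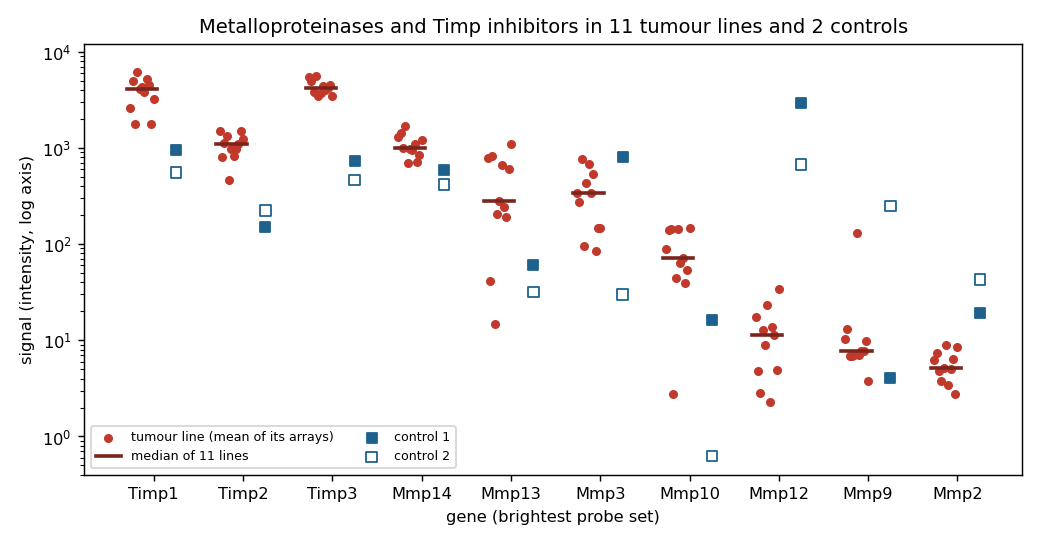
Signal of each gene's brightest probe set (log axis, scaled intensity) in the 11 tumour lines, each point the mean of a line's arrays, with the median of the lines as a bar and the 2 control arrays as squares. The lines lie above both controls for the 3 Timp genes and Mmp14 and below both for Mmp12 and Mmp2, while the controls are far apart for Mmp3 (802 and 30.1) and Mmp9 (4.03 and 248).

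Timp3, an inhibitor that stays bound to the matrix and also blocks Adam proteases, had the most even rise of the 3 inhibitors (probe set 160519_at). The control arrays gave signals of 736 and 463. The lines gave 4312 ± 740 (SD, n = 11 lines), with the lowest line mean in gammaD12 (3428), a median of 4210 and the highest in betaD10 (5573). Control and lines did not overlap, and all 22 tumour arrays, from 2293 to 5949, lay above both controls. The log2 difference was 2.78 (SE 0.20, limma adjusted p = 1.1e-07), and Timp3 was called in each of the 11 lines, at 2.49 to 3.19. It kept its call under all 43 alternative settings. Among the lines it was not called (F-test adjusted p = 0.856).

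Timp2, which blocks Mmp2 and also bridges its proenzyme to Mmp14 at the cell surface, rose about as much (probe set 93507_at). The control signals were 150.5 and 224, and the lines gave 1073 ± 311 (SD, n = 11), from 468 in betaD5 through a median of 1090 to 1498 in A2B1. The line closest to the control, betaD5, still lay above both control arrays, as did all 22 tumour arrays. This gave a log2 difference of 2.28 (SE 0.32, limma adjusted p = 4.6e-05), with calls in all 11 lines at 1.21 to 2.82. The other 2 Timp2 probe sets (161515_i_at and 160116_at) lay below the array median on all 24 arrays, with log2 differences of -0.14 and -0.02. Averaging the 3 probe sets gave 0.71, which is under 2-fold and was not called.

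Timp1, a secreted inhibitor known as an induced gene of growth factor and cytokine signalling, was also higher in the lines (probe set 101464_at). The control signals were 958 and 556. The lines gave 3852 ± 1400.2 (SD, n = 11), with the lowest means in gammaD1 (1757) and B3 (1787), a median of 4071 and the highest in betaD10 (6102). No tumour array, at 1337 to 8789, overlapped the controls. Timp1 thus differed by 2.19 on the log2 scale (SE 0.41, limma adjusted p = 0.000464), kept under all 43 alternatives, and 8 lines were called singly, the exceptions being B3 (1.19), gammaD1 (1.23) and gammaD12 (2.08). Timp1's other probe set, 162107_r_at, lay below the array median on all 24 arrays and gave a log2 difference of -0.00, and averaging both gave 1.09, still called. The cause of the disagreement was not tested.

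Repeat arrays of the same line differed in Timp1. The unnumbered array of gammaB8 gave 8789 and its replicates 1 and 2 gave 2811 and 1970. In A2C12 the unnumbered array gave 7448 and the replicates 3645 and 3907, and in B3 2594 against 1337 and 1431. In A2B1 the values were 3481 and 1748. The unnumbered array was the brightest of its line in each of these 4 lines and in gammaA7 (6757 against 5877 and 3064), while in cRAF_cMYC its 4969 lay between 5300 and 2629. Over the 6 lines the unnumbered arrays were higher by 0.97 on the log2 scale (SE 0.20, limma adjusted p = 0.0139), with all 6 lines in that direction against the mean of their numbered arrays. An adjusted p under 0.05 was reached by 7.78% of all probe sets in this comparison, and no other of the 10 genes reached it. With the 2-fold threshold added, 0.362% of all probe sets and none of the 10 genes were called. The sources used here do not explain the unnumbered label. The rise against control held on either kind of array, at 2.52 with 1 array per line, the unnumbered or only one, and at 1.99 with the numbered arrays where a line had them.

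Mmp14 is the membrane-type protease that cuts collagen at the cell surface and activates the Mmp2 proenzyme (probe set 160118_at). The control signals were 593 and 417, and the lines gave 1080 ± 301 (SD, n = 11), from 689 in betaD5 through a median of 997 to 1666 in betaD10. All 11 line means lay above both control arrays, but 1 of the 22 tumour arrays, replicate 2 of gammaB8 (455), lay between them. Its log2 difference of 1.01 (SE 0.28, limma adjusted p = 0.00746) lay just past the 2-fold threshold, and 5 lines were called singly (betaD10 at 1.68, A2C12 at 1.45, A2B1 at 1.33, gammaD12 at 1.22 and gammaA7 at 1.05). The call was lost under 12 of 43 alternatives. Without control 2 the difference was 0.77 (adjusted p = 0.132). In the other 11 it lay between 0.92 and 1.00 with an adjusted p still under 0.05: with an offset of 100, without the lines A2B1, A2C12, betaD10 or gammaD12, without the unnumbered array of gammaB8, replicate 1 of A2C12 or replicate 2 of cRAF_cMYC or gammaA7, with 1 array per line, and without the numbered arrays of cRAF_cMYC and gammaA7.

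All 11 line means lay above both controls for 4 of the 10 genes (the 3 Timp genes and Mmp14), against 16.9% of all probe sets, and below both for 2 (Mmp2 and Mmp12), against 28.2%. The likeness between the numbered arrays of cRAF_cMYC and gammaA7 was visible in Timp2, Timp3 and Mmp14. Replicate 1 gave Timp2 signals of 1340 in cRAF_cMYC and 1404 in gammaA7, and replicate 2 gave 643 and 677. For Timp3 the replicate 1 arrays gave 4581 and 4501 and the replicate 2 arrays 2445 and 2293. For Mmp14 they gave 815 and 851, and 1386 and 1332. In each of the 3 genes the same-numbered arrays of different lines lay closer than the arrays of 1 line. In Timp1 the replicate 1 arrays (5300 and 5877) lay farther apart than replicate 1 and the unnumbered array of cRAF_cMYC (5300 and 4969). Leaving out those 4 arrays kept 4 of the 6 calls (Timp1, Timp2, Timp3 and Mmp12), with Mmp14 at 0.98 (adjusted p = 0.0123, under 2-fold) and Mmp10 at 1.34 (adjusted p = 0.0828).

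Mmp3, Mmp10, Mmp12 and Mmp13 are neighbours on mouse chromosome 9, where RefSeq gives the order Mmp13, Mmp12, Mmp1b, Mmp3, Mmp1a and Mmp10. Genes of this cluster are known targets of AP-1, the Fos and Jun factor that acts downstream of Raf signalling and binds the letters TGAGTCA. The stretches just before the starts of the 4 genes are shown because Mmp10 rose and Mmp12 fell in the lines while Mmp13 differed among them. They run from 85 bases before to 1 base before the RefSeq start on the plus strand of GRCm38.p6, with the AP-1 letters TGANTCA in capitals. The letters TATAAA of a TATA box are in capitals too. Only starts with TGANTCA before them are shown, so a match in each stretch was given by that choice. For Mmp12 this is the second of 2 annotated starts.
Mmp13 chr9:7272429-7272513: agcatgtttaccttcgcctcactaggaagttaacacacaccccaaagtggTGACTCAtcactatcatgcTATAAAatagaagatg
Mmp12 chr9:7347289-7347373: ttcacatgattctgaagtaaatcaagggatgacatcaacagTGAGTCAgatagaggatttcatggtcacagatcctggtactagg
Mmp3 chr9:7445737-7445821: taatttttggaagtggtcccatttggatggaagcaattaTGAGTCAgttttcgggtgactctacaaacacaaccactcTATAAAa
Mmp10 chr9:7502257-7502341: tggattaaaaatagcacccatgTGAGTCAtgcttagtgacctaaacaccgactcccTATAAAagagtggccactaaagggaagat
Searched on both strands within 250 bases before the start, TGANTCA was found once in each of these 4 windows, at base -35 for Mmp13 (TGACTCA), -44 for Mmp12, -46 for Mmp3 and -63 for Mmp10 (TGAGTCA in all 3). TATAAA was found in Mmp13, Mmp3 and Mmp10 and not in this Mmp12 window, and the motifs did not overlap. Of 32841 RefSeq promoters, 6.75% held TGANTCA, 12.4% TATAAA and 1.21% both. The other Mmp12 start, Mmp14, Timp1, Timp2 and Timp3 held neither, and Mmp2 and Mmp9 had no entry among the 8 of 10 genes matched. A match describes letters and not a bound site.

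Mmp13, the main interstitial collagenase of the mouse, ranged widest among the lines (probe set 100484_at). The control arrays gave 60.8 and 31.8. The line means were 14.7 in betaD10, 40.9 in A2C12, 192 in gammaB8, 205 in betaD5, 245 in gammaA7, 279 in cRAF_cMYC, 607 in gammaD1, 669 in gammaA3, 783 in A2B1, 822 in B3 and 1086 in gammaD12, or 449.5 ± 358 (SD, n = 11). Thus 9 lines lay above both control arrays, A2C12 lay between them and betaD10 below both. No neighbours in this order differed past an adjusted p of 0.05 (10 pairs, the smallest limma adjusted p being 0.0966).

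The F-test over the 11 lines called Mmp13 (limma adjusted p = 0.0122) and no other of the 10 genes, against 2.16% of all probe sets. Of 55 pairs of lines, 4 differed in Mmp13, 1 in Mmp14 and none in the other genes, against 0.671% of all probe set and pair combinations. Each of the 4 Mmp13 pairs was against A2C12. They were gammaD12 (log2 difference 3.95, SE 0.71, adjusted p = 0.0141), B3 (3.56, SE 0.50, adjusted p = 0.00129), A2B1 (3.24, SE 0.56, adjusted p = 0.0025) and cRAF_cMYC (2.02, SE 0.50, adjusted p = 0.049). In those 4 comparisons 1.59%, 3.63%, 12.3% and 2.25% of all probe sets were called. The line betaD10 had a lower mean than A2C12 and, like gammaD12, 1 array, and its pairs were not called. Adjustment ran over all probe sets within each pair, so a call also depended on the other probe sets of that pair. Between B3 and betaD10 0 of 12422 probe sets were called, and between A2C12 and gammaD12 197. The F-test call rested on the arrays of A2C12: without its replicate 1 the adjusted p was 0.0532, and without its replicate 2 it was 0.0604. A2C12 was also the lowest line for all 4 mesothelial markers measured, with Bnc1 at 16.2 against a mean of 447 over the 11 lines, Upk3b at 42.8 against 2091, Wt1 at 23.2 against 137 and Msln at 60.4 against 584. Of these Bnc1 was called among the lines (F-test adjusted p = 0.0162). The 4 signals summed to 866 and 1296 on the control arrays and to 98.7 to 9433 on the tumour arrays, and none of the 4 was called against the control. Their part in the Mmp13 result was not tested.

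Set against the control over all lines, Mmp13 stood at a log2 difference of 2.05 with a wide error (SE 0.98, limma adjusted p = 0.0945) and was not called. Without betaD10 it was called at 2.33 (adjusted p = 0.0273) and without A2C12 at 2.26 (adjusted p = 0.0479). Taken singly, 7 lines were called higher: gammaD12 by 3.86, B3 by 3.47, gammaA3 by 3.19, A2B1 by 3.15, gammaD1 by 3.06, cRAF_cMYC by 1.94 and gammaA7 by 1.64. In gammaB8 (1.42), betaD5 (1.62), A2C12 (-0.09) and betaD10 (-0.72) it was not called.

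Arrays of the same line also spread in Mmp13. The 3 arrays of B3 gave 876, 773 and 817, and those of A2C12 gave 47.7, 45.2 and 29.9, so these lines were far apart on every array. In A2B1 replicate 1 gave 1226 and the unnumbered array 340.3, and the correlation of these 2 arrays over 7670 probe sets was 0.32. The unnumbered array of B3, close to its replicates 1 and 2 in Mmp13, had lower correlations with them (0.03 and 0.11). In A2C12 these correlations were higher (0.60 and 0.63). The unnumbered arrays of gammaB8 (79.5), gammaA7 (90.7) and cRAF_cMYC (162) lay below both numbered arrays of their line (228 and 269, 434 and 211, and 400.2 and 274). Over the 6 lines the difference of unnumbered minus numbered arrays was -0.81 on the log2 scale (SE 0.24, limma adjusted p = 0.0595), which did not pass the threshold, and 4 of 6 lines lay in that direction. With the replicate label as a block, in which lines with a single array counted as unnumbered, the F-test call was kept (adjusted p = 0.00314).

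**Figure D2:**
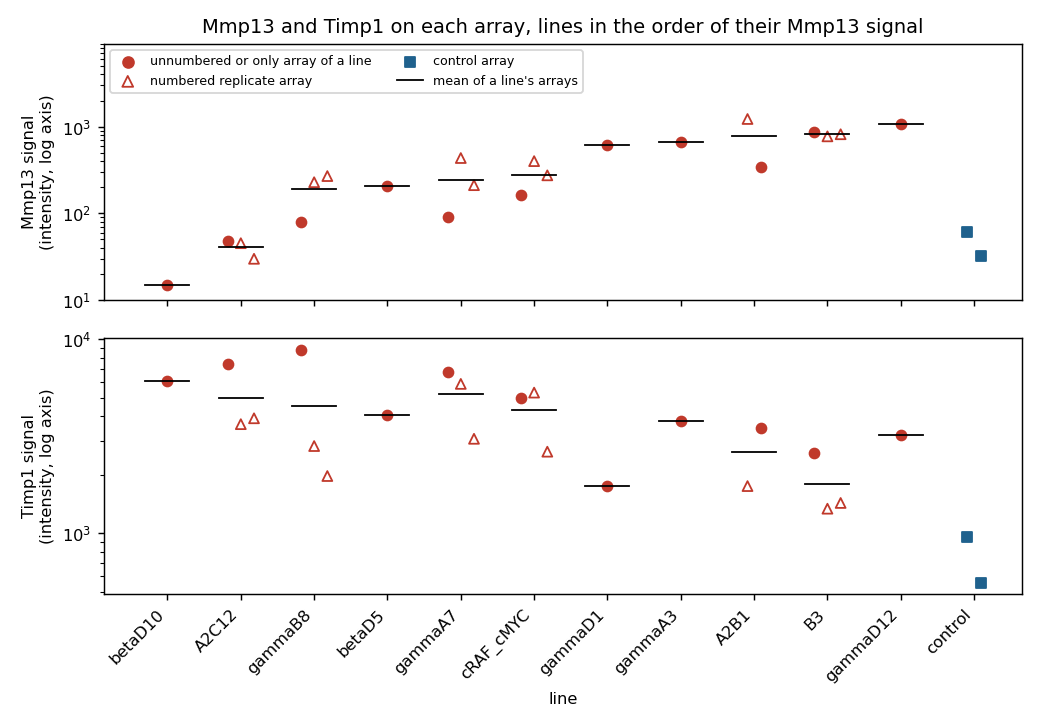
Mmp13 (top) and Timp1 (bottom) signal on every array (log axes, scaled intensity), lines ordered by mean Mmp13 signal, with unnumbered or only arrays as circles, numbered replicates as triangles, line means as bars and the 2 control arrays as squares. Mmp13 line means climb from 14.7 in betaD10 to 1086 in gammaD12, and Timp1 is above both controls on every tumour array, with the unnumbered array highest in 5 of 6 lines.

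Lines with more Mmp13 tended to have less Timp1. Over the 11 line means of log2(signal + 32), r was -0.76 and rho -0.73. Without the 2 lines farthest from the median of Mmp13 r was -0.65, and over 1 array per line, the unnumbered or only one, it was -0.83. The lines betaD10 and A2C12 had the lowest Mmp13 signals and Timp1 signals of 6102 and 5000.1, whereas B3 and gammaD1, with high Mmp13, had the lowest Timp1. These values are a description: this was the strongest of 45 pairs of the 10 genes, both genes are read on the same arrays and share their scaling, and the unnumbered minus numbered differences were 0.97 in Timp1 and -0.81 in Mmp13. Within single lines the picture was mixed: the unnumbered array was the brightest of its line in Timp1 and the dimmest in Mmp13 in gammaB8, gammaA7 and A2B1, but the brightest in both genes in A2C12 and B3. The part of the array label in the relation was not tested beyond the value on 1 array per line. Next came Mmp2 with Mmp12 (r = 0.72, but 0.33 without 2 lines, and both at the floor) and Mmp14 with Timp3 (r = 0.61). The genes most like Mmp13 over the 11 line means, among 4837 searched, were the myosin light chain Myl12b (r = 0.90), the syntaxin Stx3 (r = 0.90) and Suds3 (r = 0.88), again as a description.

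**Figure D3:**
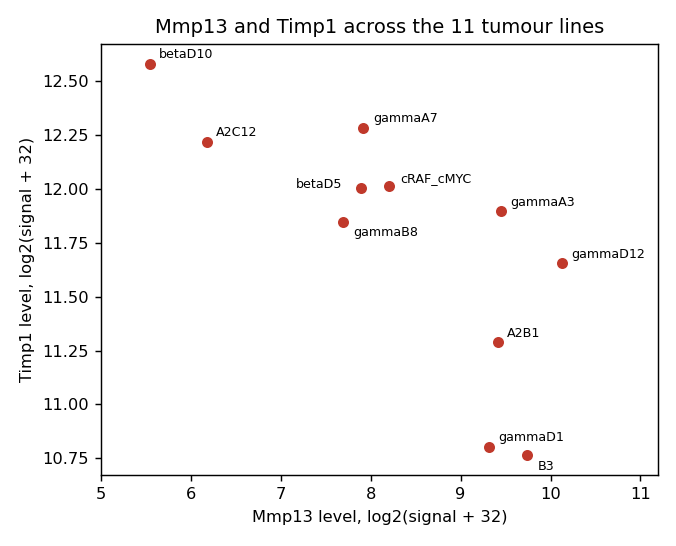
Timp1 against Mmp13 across the 11 tumour lines, each point the mean of a line's arrays in log2(signal + 32). Timp1 is lower where Mmp13 is higher (r = -0.76), with betaD10 and A2C12 at the upper left and gammaD1 and B3 at the lower right.

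Mmp3, stromelysin 1, was measured in the lines between control arrays that lay far apart (probe set 98833_at). Control 1 gave 802 and control 2 gave 30.1. All 11 line means lay between these, at 349.8 ± 234 (SD, n = 11), from 84.5 in gammaB8 through a median of 338 to 774 in B3. The log2 difference was 0.41 (SE 0.84, limma adjusted p = 0.715), no line was called singly, and the difference was 2.29 (adjusted p = 0.0516) without control 1 and -1.46 (adjusted p = 0.232) without control 2. Controls at least 2-fold apart were found for 10.7% of all probe sets. Among the lines, replicates held together better: B3 gave 649, 862 and 812, cRAF_cMYC 646, 696 and 675, A2C12 331, 246 and 244, and gammaB8 141, 54.7 and 57.4. The F-test over all 11 lines did not call Mmp3 (adjusted p = 0.275), but it was called with the 6 lines that have repeat arrays and with the numbered arrays of 5 lines. Both of those settings also called more of all probe sets than the test over all 11 lines, whose share was 2.16%. In A2B1 and gammaA7 the unnumbered array was well below the others, at 108 against 578 and at 209.7 against 730.2 and 674.

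Mmp10, stromelysin 2, was near the floor in the control and low in the lines (probe set 94724_at). The control signals were 16.2 and 0.624, and the lines gave 85.4 ± 50.9 (SD, n = 11), from 2.76 in betaD10 through a median of 71.9 to 145 in gammaD12. Of the 11 line means 10 lay above both controls and betaD10 lay between them, and the signal passed the array's median on 12 of 22 tumour arrays and on neither control array. The log2 difference was 1.35 (SE 0.49, limma adjusted p = 0.0303), with single calls in B3 (2.12), A2C12 (2.11) and cRAF_cMYC (1.94). With an offset of 1 the difference was 3.45. The call was lost under 6 of 43 alternatives: without control 1 (1.63, adjusted p = 0.0627) or control 2 (1.07, adjusted p = 0.243), with an offset of 100 (0.70), with a floor of 32 (1.18), with 1 array per line (1.29), and without the numbered arrays of cRAF_cMYC and gammaA7. Here too the numbered arrays of those lines matched across lines, with replicate 1 at 37.2 and 40.7 and replicate 2 at 155 and 164. The lines betaD10 and A2C12, both low in Mmp13, gave 2.76 and 140.1 for Mmp10, though no pair of lines was called in this gene.

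Mmp12, the macrophage elastase, had the largest difference of the 10 genes, and in the opposite direction (probe set 95339_r_at). The control arrays gave 2942 and 670. The lines gave 12.4 ± 9.73 (SD, n = 11), with a lowest mean of 2.28 in gammaA3, a median of 11.4 and a highest of 34.3 in gammaD12. Every tumour array lay below its own array's median and below both controls. Mmp12 fell by 5.06 on the log2 scale (SE 0.37, limma adjusted p = 1.2e-07), was called lower in all 11 lines, at -5.40 to -4.45, and kept its call under all 42 alternatives. It stood at -4.02 without control 1 and at -6.10 without control 2. The other probe set, 95338_s_at, gave 721 and 119 in the control and 11.5 ± 5.96 in the lines (-2.97, SE 0.37, adjusted p = 1.5e-05). Macrophage markers moved with it: all 13 of 13 measured were called lower, with summed signals of 47525 on control 1, 27452 on control 2 and 584 to 2070 on the tumour arrays, and 10 of the 13 below the array median on every tumour array. Both the Mmp12 signal and this sum were higher on control 1 than on control 2. The part of macrophages in the control preparations in this result was not tested.

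Mmp9, gelatinase B, which neutrophils store and macrophages secrete, gave 4.03 on control 1 and 248 on control 2 (probe set 99957_at). The lines gave 19.2 ± 37.2 (SD, n = 11) with a median of 7.73, a mean that rested on 1 array, the unnumbered array of cRAF_cMYC at 373. The replicates of that line gave 10.1 and 10.4, and no other tumour array passed 24.4. The log2 difference was -1.23 (SE 0.50, limma adjusted p = 0.0532) and was not called. It was -2.71 without control 1 and called, and 0.25 without control 2. It was also called without the unnumbered array of cRAF_cMYC (-1.33, adjusted p = 0.0218) or without that line (-1.33, adjusted p = 0.0285). The call was made too with the filter of a signal above the median on at least 2 arrays, and with the numbered arrays where a line had them. Neutrophil markers had summed signals of 1259 on control 1, 4235 on control 2 and 151 to 445 on the tumour arrays, with 6 of 9 called lower, and their part in the Mmp9 signal of control 2 was not tested. The other Mmp9 probe set, 162369_f_at, lay below the array median throughout and stood at -0.37.

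Mmp2, gelatinase A, usually made by mesenchymal cells, was not well measured in any sample. Its brighter probe set, 161509_at, gave 19.3 and 42.9 in the control and 5.66 ± 2.00 (SD, n = 11) in the lines, and its other one, 95663_at, 5.90 and 27.2 against 6.76 ± 5.23. Both lay below the array median on all 24 arrays, so Mmp2 was the gene among the 10 that would not have passed a filter of a signal above the median on at least 2 arrays. The log2 difference of the brighter one was -0.72 (SE 0.12, limma adjusted p = 0.000128), under 2-fold and not called. Its value moved to -2.34 with an offset of 1, where it was called lower, and to -0.19 after centring the arrays.

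**Figure D4:**
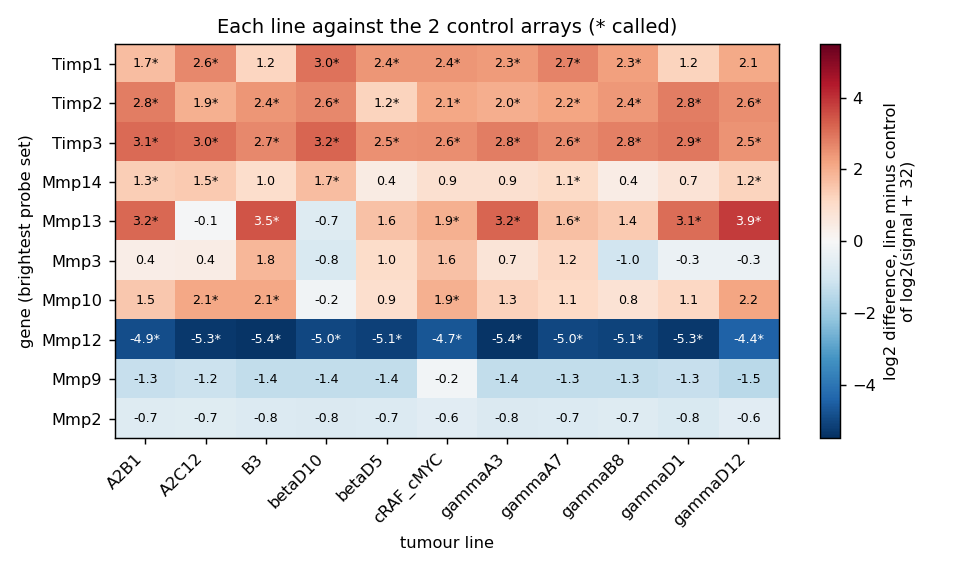
Log2 difference of each tumour line minus the 2 control arrays, on the log2(signal + 32) scale, for each gene's brightest probe set; red is higher in the line, blue lower, and an asterisk marks a called contrast. Timp2 and Timp3 are called higher and Mmp12 lower in all 11 lines, while Mmp13 runs from -0.72 in betaD10 to 3.86 in gammaD12.

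Counted line by line, 45 of the 110 contrasts of a gene with the control were called higher and 11 lower, where 9.92% and 16.1% of all contrasts were. The 11 lower calls were all Mmp12. Of the 45 higher calls, 22 were Timp2 and Timp3, 8 Timp1, 7 Mmp13, 5 Mmp14 and 3 Mmp10. The contrasts share the same 2 control arrays, so they are not independent of each other. Lines had between 3 and 5 genes called higher, with 5 in A2B1, A2C12, cRAF_cMYC and gammaA7. These counts moved when either control was left out, and the share of all contrasts called was not computed there.

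Other genes of matrix breakdown were read from lists of related genes. Of 6 other metalloproteinases measured, none was called higher and 1 lower, Mmp8, the neutrophil collagenase, from 388 and 25.2 to 4.65 ± 1.26 (log2 difference -2.08, SE 0.43, limma adjusted p = 0.00101), and only 1 of the 6 passed the filter on low signals. Without control 1 Mmp8 stood at -0.64, under 2-fold, and without control 2 at -3.52. Of 11 other inhibitors and partners, 2 were called higher and 2 lower, with a median log2 difference of 0.05. Pcolce, which enhances procollagen processing, rose by 1.95 and Cd44, a hyaluronan receptor that can dock Mmp9, by 1.79. Pcolce stood at 1.35 without control 1 and at 2.56 without control 2. Reck, a membrane-anchored metalloproteinase inhibitor, fell by 1.90, from 83.5 and 193 to 12.2 ± 8.52, and Furin, a convertase that activates membrane-type proenzymes, fell by 1.06 (413.6 ± 57.5 in the lines against 823 and 955). Cd44 was not called without control 1 (1.50, adjusted p = 0.112), nor Furin without control 2 (-0.96) or after centring (-0.53). Cd44 was also called among the lines (F-test adjusted p = 0.0415), from 284 in A2B1 to 2539 in A2C12. The membrane-anchored inhibitor Reck and the 3 secreted Timp inhibitors were called in opposite directions, in all 11 lines below or above both controls.

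Of 8 plasminogen system genes, none was called higher and 2 lower, Hpn (-1.58) and Serpinf2 (-1.19), with a median of -0.70; neither was called without control 2 (-0.89 for both), nor Serpinf2 after quantile normalization (-0.96) or centring (-0.66). Of 9 Adam and Adamts proteases 1 was called higher, the sheddase Adam9 (1.50, SE 0.26), and 1 lower, the leukocyte protease Adam8 (-4.04, SE 0.23). Adam19 was called among the lines (F-test adjusted p = 0.0162), from 11.7 in A2B1 to 549.5 in A2C12. Of 16 inducers and transcription factors 1 was called higher and 6 lower, with a median of -0.71. The AP-1 member Fosl1, the one gene of this list called higher by its brightest probe set, rose by 2.30 while Fos fell by 4.03. The other AP-1 members of the list lay lower by their brightest probe sets. Fosb stood at -2.21 and was called, but without control 2 it stood at -1.04 and was not. Jun (-0.76), Junb (-0.70), Fosl2 (-0.61) and Jund (-0.39) were not called. Of the cytokines Il1a fell by 3.57 and Il1b fell by 3.02. Without control 2 Fosl1 stood at 1.19 (adjusted p = 0.0761), Il1a at -4.93 and Il1b at -1.76, and without control 1 Il1a stood at -2.22 and Il1b at -4.28, with Fosl1 still called higher. Of 12 matrix substrates 6 were called higher and 2 lower, with a median of 1.02. The chains of collagen type I rose, Col1a1 by 3.77 and Col1a2 by 3.19, and elastin (Eln), a substrate of Mmp12, fell by 3.14. Without control 2 Col1a1 stood at 2.48 and Eln at -2.40, and without control 1 they stood at 5.07 and -3.88. Other probe sets read otherwise, at -0.01 for Col1a1, at -0.15 for Eln, not called, and at -1.72 for Col1a2, called lower. Further ones were called lower for Junb (-1.32) and Cav1 (-1.02) and higher for Etv4 (1.10), where the brightest was not called. Those of Fos (-0.53), Cd44 (-0.01 and -0.05) and Serpinf2 (-0.08) were not called and lay below the array median throughout. Fibroblast markers, which mark the cells that usually make these collagens, had summed signals of 3825 and 3455 in the control and 3458 to 13992 on the tumour arrays, with 2 of 11 called higher and 4 lower. Their part in the Timp and collagen values was not tested.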

How the data were processed

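RNA of 11 tumour lines (22 arrays) and control cells (2 arrays) was labelled with biotin and hybridised to an Affymetrix mouse array, per the labels' protocols. The deposited values are linear signal intensities, 1 for each probe set and array. Per the submitters' processing notes GCOS was used; its version, background correction and detection calls are not given there. The mean signal, trimmed by 2% at each end, was 248 to 249 on every array, so arrays had been scaled to it before deposit. Arrays give no total count, and precision rests on their number: 5 lines had 3 arrays, 1 had 2 and 5 had 1.

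After 66 Affymetrix control probe sets were left out, 12422 were tested as log2(signal + 32), of which 10833 had 1 symbol, 396 several and 1193 none. No filter on expression was applied. In limma 3.58.1 (R 4.3.3), the mean of each line entered a comparison with the control arrays (11 residual degrees of freedom), and 12 group means were fitted to all 24 arrays (12 residual degrees of freedom) for each line's contrast, pairs of lines and an F-test over lines. These assume that lines and controls vary alike. P-values were adjusted by Benjamini-Hochberg over all probe sets. All 10 genes are named, each by its brightest probe set, with some called genes of each other list and the 3 genes most like a gene past the F-test. The genes named from those lists were not always those with the largest difference. The genes and lists were chosen with earlier results of these data known. Promoters came from RefSeq (GRCm38.p6). Alternatives were other scalings, offsets, filters, variance models, fold thresholds and probe set averaging, subsets of arrays, leaving out each array or line, the line as a random block and the replicate label as a block; leaving out the numbered arrays of cRAF_cMYC and gammaA7 was added after seeing the data. The fits were tested on simulated data.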

Additional observations from a re-analysis of the deposited data

Results flagged for a closer look

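The collagenase Mmp13 differed among the tumour lines by a test of the difference itself, limma's F-test over the 11 lines (adjusted p = 0.0122). Its lowest line mean was 14.7, in betaD10, and its highest was 1086, in gammaD12. Both of these lines had a single array, and the pairs that passed an adjusted p of 0.05 were all against A2C12, whose 3 arrays gave 47.7, 45.2 and 29.9.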

How the results depend on the processing

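Timp1, Timp3 and Mmp12 kept their direction and call against control under each alternative run (43, 43 and 42), and Timp2 under 42 of 43. Over those alternatives the log2 differences ran from 1.09 to 2.72 for Timp1, 2.47 to 3.32 for Timp3, -7.14 to -3.77 for Mmp12 and 0.71 to 2.81 for Timp2. Mmp3 and Mmp9, not called, changed sign without control replicate 2, to -1.46 and 0.25, and stood at 2.29 and -2.71 without control replicate 1. Leaving out 1 array or line at a time gave 4 to 7 of the 10 genes called against control, and 2779 to 3847 of the 12422 probe sets. Leaving out 1 array gave 0 to 1 of the 10 genes called among lines, and 55 to 822 of all probe sets. Of these settings, the line contrasts were recomputed only without each control, where their counts moved and the share of all contrasts called was not computed. Among lines, 2 genes (Mmp3 and Mmp13) were called with the 6 lines with 2 or 3 arrays only and with the numbered arrays of 5 lines. More of all probe sets were called there too, and the cause was not tested. The F-test with the replicate block called 1 gene, Mmp13 (adjusted p = 0.00314), and the block changed no other call. The replicate labels are not said to pair the lines.

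Among all probe sets, 3363 were called against control. That count was 2157 with an offset of 100, 2120 with a signal above the median required on 12 arrays, 6585 without a fold threshold, 927 at 4-fold and 2193 genes after averaging probe sets. Among lines 268 were called, 121 with an offset of 1, 927 with the 6 lines only, 1369 with the numbered arrays, and 55 to 822 when 1 array was left out. Low signals limit Mmp2 and Mmp9 in most samples, Mmp12 in the tumour lines and Mmp10 in the controls.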
